A study of Mus musculus with 2 samples.

Results

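Macrophages that transcribe Folr2, the gene for folate receptor beta, were described here among single cells from healing skull defects of wild-type C57BL/6 mice. A cell barcode was a member if it held at least 20 unique molecular identifiers (UMIs, 1 per captured RNA molecule) of C1qa, C1qb and C1qc together, at least 1 of Csf1r and at least 1 of Folr2. Barcodes with under 200 detected genes or over 20% of UMIs from mitochondrial genes were left out. The rule found 452 members among 22810 barcodes that passed the gene and mitochondrial limits, of 23333 barcodes in all. Of these members, 447 came from the library of defects filled with a CGG hydrogel and 5 from the library of defects filled with a CGG-Cit hydrogel. The defects were 2 mm wide, made in the parietal bone and collected on day 14, and the tissue was digested with 0.3% collagenase and passed through a 70 µm strainer before droplet-based sequencing. There was 1 library per hydrogel and the labels do not say how many mice each one holds, so hydrogel, library and animal cannot be told apart. No test between libraries was possible, since cells of 1 library are not replicates, and all intervals below are 95% intervals that cover counting error only.

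Folr2 encodes a membrane receptor that binds folate, and in mouse tissues it marks macrophages that settle in organs and around vessels, which often also carry the mannose receptor Mrc1 and the chemokine Pf4. C1q is the recognition molecule of the classical complement pathway and is made mainly by tissue macrophages, while Csf1r is the receptor for the growth factor that keeps macrophages alive. Monocytes arriving from blood carry Ccr2 and Ly6c2, and in injured tissue can become macrophages that take up lipid and debris and express Gpnmb, Spp1 and Fabp5.

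The rule fixed the levels of its 5 genes, which are given as a description. CGG members held a median of 142 C1q UMIs (20 to 717), 7 Csf1r UMIs and 2 Folr2 UMIs, with a highest Folr2 count of 60. They held 81.6% of the 2870 Folr2 UMIs of the passing CGG barcodes. A further 424 CGG barcodes carried Folr2 without meeting the C1q or Csf1r limit, and 371 of them had a single UMI. Free RNA can place a UMI in any droplet: Folr2 stood at 4.31 CPM (counts per 1000000 UMIs) in 1210 CGG barcodes marked as B lineage by Cd79a and Cd79b (median 3101 UMIs), where 2.40% of barcodes held a Folr2 UMI. At that level, 58.3 of the 1199 CGG barcodes meeting the C1q and Csf1r limits would hold a Folr2 UMI, against the 447 found. For exactly 1 Folr2 UMI the expected number was 56.1 and the observed 160, and for 2 or more they were 2.18 and 287. These expected numbers take free RNA to be the same share of UMIs in macrophage as in B lineage barcodes, which was not tested. As Folr2 set the rule, the numbers describe the members and are no evidence for them.

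At the edges of the rule, the 18 barcodes with 20 to 24 C1q UMIs had 361 CPM of Mrc1 and 2096 CPM of the collagen gene Col1a1. The 11 barcodes with 15 to 19 C1q UMIs had 85.4 CPM and 9995 CPM. At that edge Pf4 was at 361 and 256 CPM and the chemokine gene Ccl8 at 770 and 470 CPM. The monocyte gene Ly6c2 was at 1248 and 1580 CPM, against 191 CPM in the 160 members with 1 Folr2 UMI. Apoe, shared by most C1q macrophages, was at 9156 and 6386 CPM, against 31655 CPM in those members. The 41 members with 1 Csf1r UMI had 860 CPM of Pf4, and the 32 barcodes with none had 294 CPM. Mrc1 differed less there, at 316 and 246 CPM, and Ccl8 went the other way, at 529 and 658 CPM. Barcodes with exactly 1 Folr2 UMI had 503 CPM of Mrc1, between the 263 CPM of those with none and the level over all members.

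Members made up 3.64% of passing CGG barcodes (447 of 12279, exact Clopper-Pearson interval 3.32 to 3.99%) and 0.0475% of passing CGG-Cit barcodes (5 of 10531, 0.0154 to 0.111%). The CGG share was 76.7-fold higher (32.6 to 237), a difference of -3.59 percentage points for CGG-Cit minus CGG (Newcombe interval -3.94 to -3.27). Most of this gap lay in the number of C1q macrophages as a whole, with 1199 such barcodes in CGG and 24 in CGG-Cit. Among them, members were 37.3% in CGG (34.5 to 40.1%) and 20.8% in CGG-Cit (7.13 to 42.2%), and the interval of that difference, -28.4 to 3.37 points, includes 0. The libraries differed in other cells as well, for B lineage barcodes were 9.85% of passing barcodes in CGG and 42.7% in CGG-Cit, and the median depth was 3921 against 6232 UMIs. C1q RNA under the C1q limit also differed, since 72.7% of such CGG barcodes had a C1q UMI against 1.76% in CGG-Cit. Some of these barcodes may be cells that make C1q. Among B lineage barcodes, used above for the level of free RNA, the shares were 63.8% and 1.49%. A total of 34 barcode sequences occurred in both libraries, and 2 CGG members were among them.

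The closest other cells were the 752 CGG barcodes that met the C1q and Csf1r limits with no Folr2 UMI, here called Folr2-zero C1q macrophages. Both groups come from the same library, so hydrogel and library are the same for each. Their depths were near each other, with a median of 10369 UMIs in members and 9719 in Folr2-zero cells. Levels are UMIs summed over a group, as CPM with exact Poisson intervals, and ratios have exact conditional binomial intervals. A gene counts as measured when its mean over both groups reached 10 CPM and its UMIs there totalled 20 or more.

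Mrc1, which takes up mannose-bearing glycoproteins and collagen fragments, was detected in 383 of 447 members (85.7%) with a median of 6 UMIs and a highest count of 46. Its level was 734 CPM (711 to 757) in members and 263 CPM (253 to 274) in Folr2-zero cells, a ratio of 2.79 (2.65 to 2.94). Pf4, platelet factor 4, was detected in 365 members (81.7%) and stood at 1323 CPM (1292 to 1355) against 306 CPM (294 to 318), a ratio of 4.33 (4.14 to 4.53). With every cell thinned to 2000 UMIs, 60.4% of members and 36.2% of Folr2-zero cells had an Mrc1 UMI, a difference of 24.3 points (18.5 to 29.9). For Pf4 the thinned shares were 63.1% and 29.9%, a difference of 33.3 points (27.6 to 38.7). Thinning left out 2 members and 22 Folr2-zero cells. At full depth 65.3% of Folr2-zero cells held an Mrc1 UMI and 57.3% a Pf4 UMI. Both label markers that the rule did not use were thus present in most cells of both groups. Both were more frequent in members than in the comparison cells beyond counting error.

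The window of 250 bases before the transcription start is shown for the receptor gene that set the rule and for 3 genes whose levels stood higher with each step in Folr2 count (given below), so that their start regions can be compared (RefSeq, GRCm38.p6). Capitals mark GAGGAA, 1 form of the site bound by the macrophage factor PU.1, or TGCTGA, part of the site bound by MAF proteins. Both strands were searched, where TTCCTC and TCAGCA are the reverse complements. Other forms of these sites were not searched. Folr2 has 2 annotated starts on the minus strand, at the 5′ end of the gene (chr7:101857191-101857440) and within an intron (chr7:101845332-101845581). Mrc1 (chr2:14229164-14229413), Pf4 (chr5:90772185-90772434) and Ccl8 (chr11:82114935-82115184) lie on the plus strand. Of these windows, 22 bases at Mrc1 and 4 at the outer Folr2 start are annotated as UTR, and none of the rest lies in an annotated exon.
Folr2 outer start: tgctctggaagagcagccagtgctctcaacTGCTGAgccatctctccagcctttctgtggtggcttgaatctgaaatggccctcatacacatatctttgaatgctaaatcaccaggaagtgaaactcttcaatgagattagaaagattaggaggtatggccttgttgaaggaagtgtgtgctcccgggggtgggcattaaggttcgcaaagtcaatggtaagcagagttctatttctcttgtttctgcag
Folr2 inner start: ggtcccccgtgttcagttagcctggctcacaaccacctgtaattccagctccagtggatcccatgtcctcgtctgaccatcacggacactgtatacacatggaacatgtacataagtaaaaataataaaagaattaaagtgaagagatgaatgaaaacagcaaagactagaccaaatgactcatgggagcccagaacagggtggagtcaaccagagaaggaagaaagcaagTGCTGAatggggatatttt
Mrc1: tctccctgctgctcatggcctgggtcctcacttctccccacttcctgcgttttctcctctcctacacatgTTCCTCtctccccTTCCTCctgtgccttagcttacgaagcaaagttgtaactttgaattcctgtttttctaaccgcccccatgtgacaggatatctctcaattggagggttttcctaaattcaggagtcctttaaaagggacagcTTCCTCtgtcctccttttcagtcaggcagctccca
Pf4: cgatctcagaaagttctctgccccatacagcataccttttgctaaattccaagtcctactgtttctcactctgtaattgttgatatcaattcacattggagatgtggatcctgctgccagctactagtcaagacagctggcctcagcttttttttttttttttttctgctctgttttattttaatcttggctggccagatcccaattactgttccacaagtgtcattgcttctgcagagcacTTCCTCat
Ccl8: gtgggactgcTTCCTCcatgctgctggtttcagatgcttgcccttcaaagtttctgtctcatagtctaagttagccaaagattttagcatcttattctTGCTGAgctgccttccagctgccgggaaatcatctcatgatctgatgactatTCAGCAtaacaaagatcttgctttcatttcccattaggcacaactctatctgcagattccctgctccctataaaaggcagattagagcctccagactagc
The Mrc1 window held 3 matches to GAGGAA, the Pf4 and Ccl8 windows 1 each, and neither Folr2 window any. TGCTGA matched once in each Folr2 window and at 2 places in the Ccl8 window. Of all 32851 windows of this length, 23.3% held GAGGAA and 16.1% held TGCTGA at least once, so single matches are frequent. Windows were available for 9 of the 12 genes named as highest against Folr2-zero cells and for 9 of the 12 named as lowest. GAGGAA was in 5 of 10 windows of the higher genes and in 6 of 11 of the lower ones. TGCTGA was in 1 of 10 and 2 of 11. A match is a description of letters and not a bound site, and a window without a match may hold other forms of these sites.

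Of 7670 measured genes, 62 (0.808%) were at least 2-fold higher in members than in Folr2-zero cells and 60 (0.782%) at least 2-fold lower, with a median log2 ratio of 0.06 over all of them. Intervals of the ratio lay above 1 for 1515 genes (19.8%) and below 1 for 887 (11.6%), which abundant genes reach at smaller ratios, and the interval counts of gene lists below are to be read against these shares. Of the 24 genes listed as resident macrophage markers, 20 were measured, 16 were at least 2-fold higher and none at least 2-fold lower, with a median log2 ratio of 1.61. These genes and Folr2 are known to go together, and the comparison was chosen by Folr2, so the count describes the group and is no independent evidence for it.

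Among the receptors, the hyaluronan receptor Lyve1 was 80.4 times as high (30.9 to 298), at 36.6 against 0.454 CPM, and 29 members (6.49%) held it. Cd163, the receptor for haemoglobin and haptoglobin, was 8.87 times as high (6.33 to 12.7) and was found in 41 members (9.17%). A single Folr2-zero barcode held 56.1% of that group's Cd163 UMIs. The C-type lectin Clec10a was 5.58 times as high (4.67 to 6.70), the neonatal Fc receptor Fcgrt 2.62 times (2.33 to 2.95) and the scavenger receptor Stab1 2.09 times (1.92 to 2.27). Mgl2, a close relative of Clec10a, went the other way at 16.2 against 27.1 CPM, a ratio of 0.60 (0.46 to 0.77). Siglec1, a sialic acid-binding receptor chosen after its values were seen, was at 77.9 against 32.1 CPM, a ratio of 2.42 (2.08 to 2.83).

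Among enzymes and secreted proteins, Cbr2, a carbonyl reductase, was 22.7 times as high (18.2 to 28.5) at 224 against 9.88 CPM and was found in 186 members. F13a1, the clotting factor XIII subunit that crosslinks fibrin, was 6.87 times as high (6.14 to 7.70), and Ltc4s, which makes leukotriene C4, 3.34 times (2.86 to 3.91). Gas6, the bridging ligand for engulfment of dead cells, was 2.28 times as high (2.10 to 2.48), and the selenium carrier Sepp1 2.05 times (2.00 to 2.11). Stard8 was at 75.8 against 26.7 CPM. The transcription factor Maf was 2.37 times as high (2.25 to 2.51), at 596 against 251 CPM, and was the single one of 20 measured macrophage transcription factors past 2-fold. Spi1, which encodes PU.1, was at a ratio of 1.11 (1.05 to 1.19).

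Some markers of long-lived resident macrophages were close to absent. Timd4, a receptor for dying cells, had UMIs in 1.12% of members, Vsig4, a complement receptor, in 1.34%, and the scavenger receptor Marco had 3 UMIs in all. Markers shared by most C1q macrophages hardly separated the groups: Apoe, which carries lipid, was at 29821 against 31531 CPM (ratio 0.95), the lipid receptor Trem2 at 1106 against 1172 CPM (0.94) and the membrane protein Ms4a7 at 1117 against 971 CPM (1.15). Members with Lyve1, Cd163 or Timd4 UMIs were thus a minority.

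**Figure D1:**
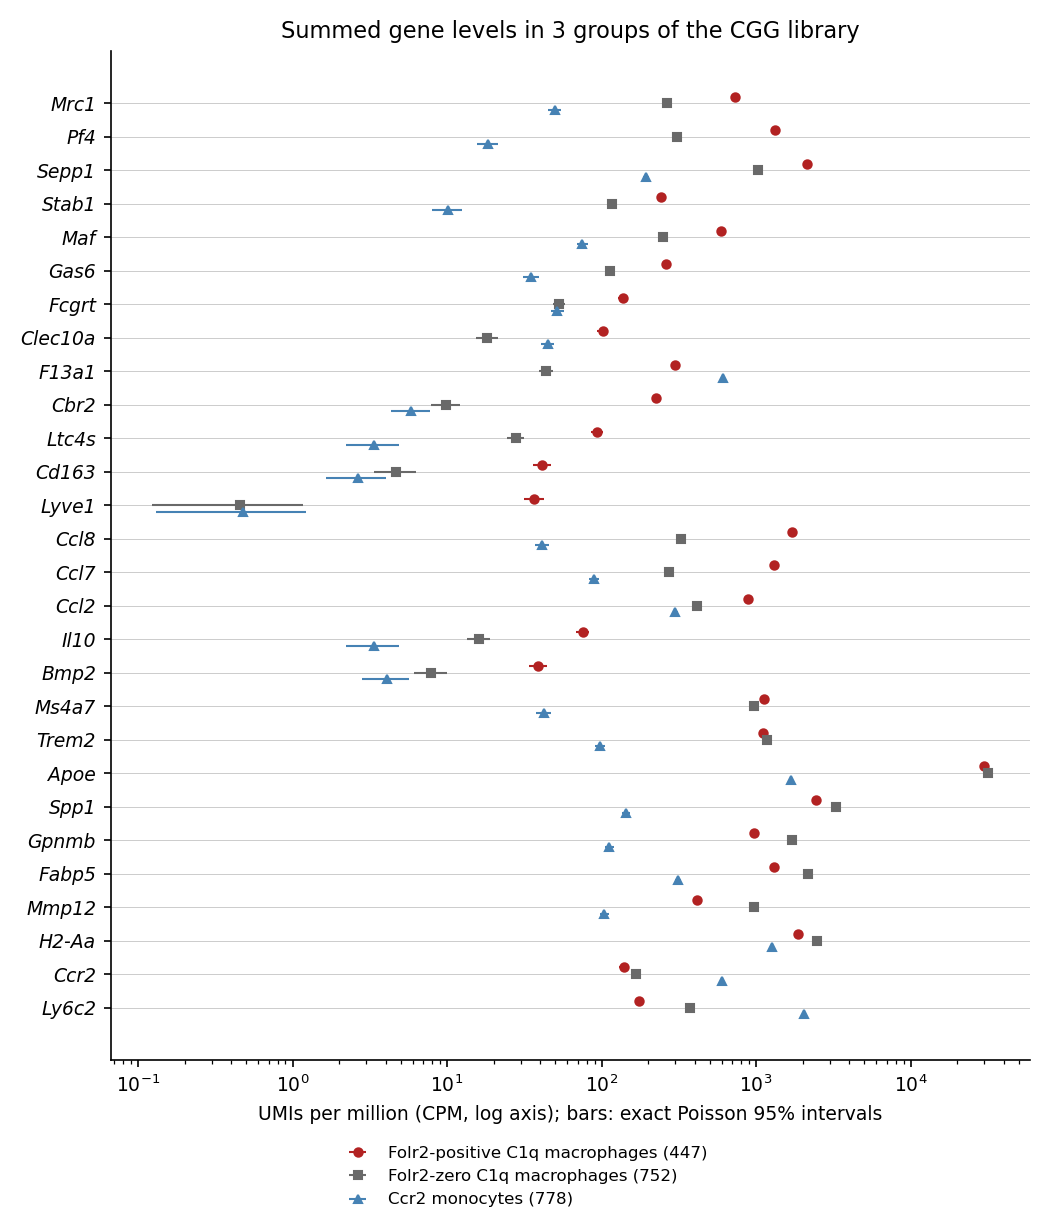
Summed levels of 28 genes in 447 Folr2-positive members, 752 Folr2-zero C1q macrophages and 778 Ccr2 monocytes of the CGG library, in CPM on a log axis with exact Poisson 95% intervals. Mrc1, Pf4, Cbr2 and Ccl8 lie farther right in members than in both other groups, while Apoe, Trem2 and Ms4a7 nearly coincide in the macrophage groups and Ly6c2 is highest in monocytes.

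Several chemokines of the CC family were prominent. Ccl8 was detected in 280 members (62.6%) with a median of 2 and a highest count of 483 UMIs, and stood at 1699 CPM against 325 CPM, a ratio of 5.23 (5.01 to 5.46). Ccl7 stood at 1309 against 273 CPM, a ratio of 4.79 (4.57 to 5.02), and Ccl2, the main Ccr2 ligand, at 891 against 415 CPM, a ratio of 2.15 (2.06 to 2.24). Of the 20 chemokine genes listed, 18 were measured, 5 were at least 2-fold higher and 1 at least 2-fold lower, with a median log2 ratio of 0.46. The others past 2-fold were Pf4, Ccl24 (19.4 against 3.29 CPM, ratio 5.89, 3.87 to 9.24) and, in the lower direction, the neutrophil attractant Cxcl3 (14.5 against 33.1 CPM, ratio 0.44, 0.34 to 0.57).

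The genes Ccl2, Ccl7, Ccl12 and Ccl8 lie in 1 cluster on chromosome 11 (GRCm38), from base 82035571, the start of Ccl2, to base 82116799, the end of Ccl8. Ccl12 was at 527 against 296 CPM, a ratio of 1.78 (1.69 to 1.88). Ccl11 and Ccl1, named after their values were seen because they lie in and beside the cluster, did not share this, with Ccl11 at 21.9 against 17.7 CPM (ratio 1.24, 0.96 to 1.58) and Ccl1 at 0 and 2 UMIs. Over 397 members thinned to 4000 UMIs, Pearson's r was 0.65 between Ccl7 and Ccl2, 0.47 between Ccl7 and Ccl12 and 0.45 between Ccl8 and Ccl7. Such correlations are descriptions over cells of 1 library, which share its free RNA.

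The CC chemokines of inflamed tissue varied. Ccl6 (1.54), Ccl9 (1.43), Ccl4 (1.40) and Ccl3 (1.35) had ratios above 1, and Ccl5, which attracts T cells, had a ratio of 0.63 (0.58 to 0.68). Cxcl2, a neutrophil attractant, was among the most abundant chemokines in both groups at 2359 against 1912 CPM, a ratio of 1.23 (1.21 to 1.26).

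Of 20 growth factor and repair genes, 17 were measured, 3 were at least 2-fold higher and none at least 2-fold lower, with a median log2 ratio of 0.01. Bmp2, a factor that drives bone formation, was at 38.8 against 7.84 CPM, a ratio of 4.95 (3.75 to 6.61), and was found in 77 members (17.2%). Il10, an anti-inflammatory cytokine, was at 75.6 against 16.0 CPM, a ratio of 4.72 (3.88 to 5.76), and Gas6 was the remaining one. Pdgfc had a ratio of 1.89 (1.59 to 2.27) and Igf1, a growth factor for bone and muscle, of 1.21 (1.14 to 1.29). The vessel growth factor Vegfa was lower at 78.4 against 143 CPM, 1.83-fold lower (1.63 to 2.05), and the interleukin 1 antagonist Il1rn had a ratio of 0.80 (0.74 to 0.86). The list therefore held genes on both sides, with its median near that of all genes.

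Of 10 measured pro-inflammatory genes, Il6 was at least 2-fold higher (24.2 against 11.4 CPM, ratio 2.13, 1.62 to 2.79, in 6.04% of members) and Il1b at least 2-fold lower (255 against 543 CPM, ratio 0.47, 0.44 to 0.50). A single member held 33 of the 127 Il6 UMIs, and without the top barcode of each group the ratio was 1.89. Tnf was at 145 CPM (135 to 156) against 121 CPM (114 to 128). The 14 interferon response genes all had ratios above 1, as did 4623 of all 7670 genes, 13 with intervals above it (19.8% over all genes) and none past 2-fold, with a median log2 ratio of 0.38. Of 18 immediate early and stress genes, which tissue digestion can induce, 17 had intervals above 1, against the same 19.8%, and none was past 2-fold, with a median log2 ratio of 0.22, and Fos was at 2753 against 2616 CPM. The part of digestion in any result was not tested.

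Complement genes other than C1q lay on both sides. Of 13 measured of 15, 8 had intervals above 1, 4 below 1 and none was past 2-fold, with a median log2 ratio of 0.44. Properdin (Cfp), which stabilises the alternative pathway convertase, was at 304 against 153 CPM, a ratio of 1.99 (1.85 to 2.14), C4b at a ratio of 1.83 (1.67 to 2.01) and the receptor C5ar1 at 1.62 (1.52 to 1.74). The 4 with intervals below 1 were Itgax, which encodes CD11c, at a ratio of 0.64 (0.58 to 0.71), the C1 inhibitor Serping1 at 0.65 (0.57 to 0.73), C3 at 0.84 (0.78 to 0.90) and the integrin chain Itgb2 at 0.85 (0.80 to 0.90). Of 15 measured efferocytosis genes, those for engulfing dead cells, Gas6 and Stab1 were past 2-fold and Mfge8, a bridging protein, was at least 2-fold lower (105 against 227 CPM, ratio 0.46, 0.42 to 0.51). The receptors Mertk (0.98, 0.86 to 1.11) and Axl (0.77, 0.70 to 0.84) were not higher.

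Of 18 other folate pathway genes 7 were measured. Of these 6 had ratios above 1, 2 with intervals above 1 and none with an interval below 1, and none was past 2-fold, with a median log2 ratio of 0.16. With 7 genes and 0.808% of all genes past 2-fold higher, that last count says nothing particular of the list. Folr1, the neighbouring folate receptor gene on chromosome 7, had 0 UMIs in members and 6 in Folr2-zero cells. The folate carriers Slc19a1 (24 and 43 UMIs) and Slc46a1 (21 and 15 UMIs) were below the level limit. Of 12 measured iron and heme genes, Cd163 was past 2-fold, Hmox1, which degrades heme, had a ratio of 1.36 (1.28 to 1.45) and the ferritin heavy chain Fth1 a ratio of 0.72 (0.72 to 0.73).

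**Figure D2:**
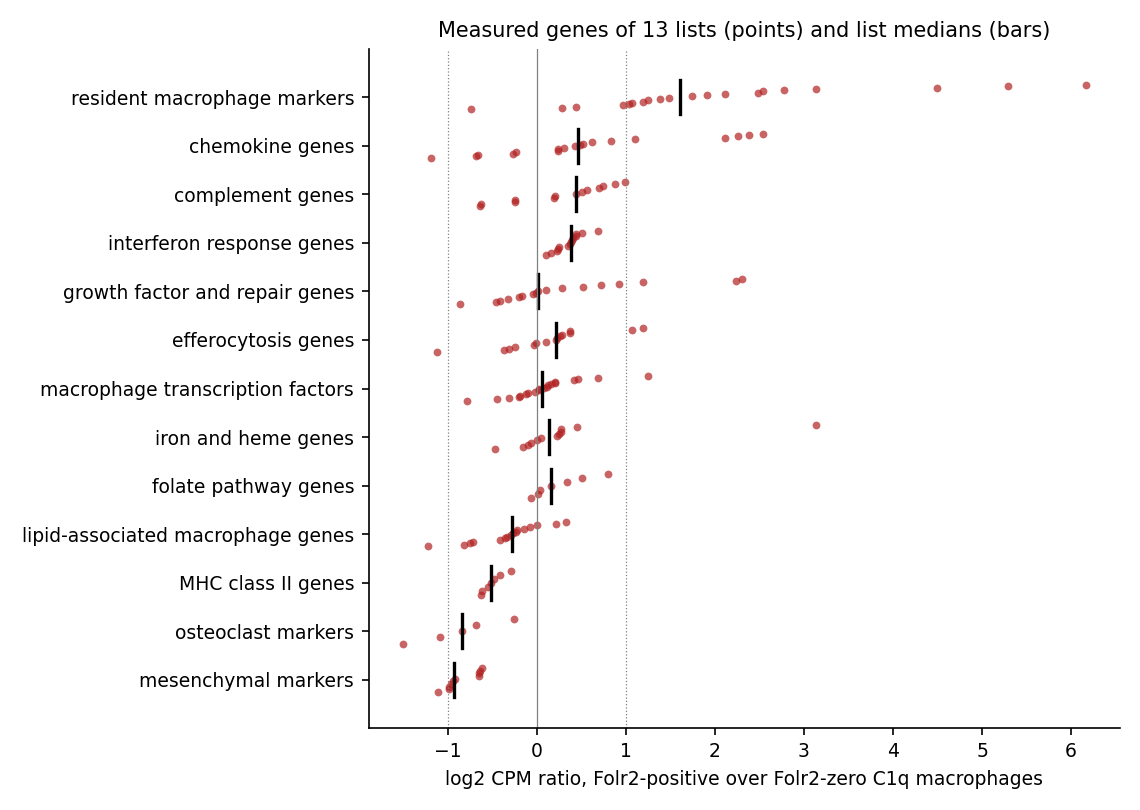
Log2 CPM ratio of Folr2-positive over Folr2-zero C1q macrophages for each measured gene of 13 lists (points) with the list median (black bars) and dotted lines at 2-fold. Resident macrophage markers reach farthest to the right with a median of 1.61, and lipid-associated, MHC class II, osteoclast and mesenchymal lists have medians below 0.

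Most genes of antigen presentation and lipid handling had ratios below 1, nearly all by less than 2-fold. All 7 MHC class II genes, which show peptides to helper T cells, had intervals below 1 (11.6% over all genes) with none past 2-fold, and their median log2 ratio was -0.51. H2-Aa was at 1856 against 2479 CPM, a ratio of 0.75 (0.73 to 0.77), and H2-Eb1 at 1469 against 2272 CPM, a ratio of 0.65 (0.63 to 0.66). Of 16 lipid-associated macrophage genes, 13 had intervals below 1, against the same 11.6%, and 1 was past 2-fold, with a median log2 ratio of -0.28. Gpnmb, a lysosomal glycoprotein, was at 966 against 1705 CPM, 1.77-fold lower (1.71 to 1.82), the fatty acid carrier Fabp5 1.68-fold lower (1.64 to 1.73), and Spp1, osteopontin, 1.33-fold lower (1.30 to 1.36). Mmp12, macrophage elastase, was at 412 against 962 CPM, a ratio of 0.43 (0.41 to 0.45). The exceptions were Ctsb at a ratio of 1.26 (1.24 to 1.28) and Cd36 at 1.16 (1.09 to 1.23), with the lipid droplet protein Plin2 at 451 against 450 CPM (433 to 470 and 436 to 464).

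Of 5 measured osteoclast markers, 2 were at least 2-fold lower, Mmp9 (31.4 against 89.4 CPM, ratio 0.35, 0.30 to 0.42) and the bone collagenase Ctsk (107 against 228 CPM, ratio 0.47, 0.43 to 0.52). One Folr2-zero barcode held 42.4% of that group's Mmp9 UMIs, and without the top barcode of each group the Mmp9 ratio was 0.55. Of 12 measured monocyte markers, 7 had intervals below 1 (11.6% over all genes) and 2 above 1 (19.8% over all genes). Their median log2 ratio was -0.26, with ratios from 0.47 to 1.38 and 1 gene at least 2-fold lower. Ly6c2 was at 176 against 375 CPM (ratio 0.47, 0.43 to 0.50) and Ccr2 at 139 against 168 CPM (ratio 0.83, 0.76 to 0.91). The bone marrow genes Elane and Prtn3, granule proteases of myeloid progenitors, were at ratios of 0.25 (0.19 to 0.31) and 0.33 (0.27 to 0.40), with 48.4% and 41.2% of the Folr2-zero UMIs in 1 barcode.

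RNA of other cell types moved with the comparison. All 10 mesenchymal markers had ratios with intervals below 1 (11.6% over all genes), from 0.46 to 0.65, and their summed level was 4107 CPM in members and 7725 CPM in Folr2-zero cells, against 33308 CPM in all CGG barcodes under the C1q limit. Col1a1 was at 928 against 2001 CPM. Sfrp2 (113 against 240 CPM) and Ptn (23.4 against 77.9 CPM), secreted proteins of connective tissue outside the list, were lower too. Of 9 measured neutrophil markers 7 had intervals below 1, with a summed level of 8079 against 9530 CPM, and of 7 erythroid markers 4 did, with 10065 against 13154 CPM. When barcodes rich in collagen, Cd79 or Cd3 RNA were left out of both groups, the mesenchymal median log2 ratio went from -0.93 to 0.16, while that of the resident markers was 1.70 and that of MHC class II -0.59. The named gene Prss34, a basophil protease, had 97.5% of its member UMIs in 1 barcode, and Mcpt8, another basophil protease, had 98.4% there. That barcode held 30735 UMIs, 52 of Folr2 and 720 of both proteases, and without the top barcodes the Prss34 ratio went from 54.3 to 1.68. In the same way, 1 Folr2-zero barcode held 92.8% of the osteocalcin (Bglap) and 92.6% of the Bglap2 UMIs, and the ratios 0.09 and 0.05 became 1.14 and 0.62 without the top barcodes. The part of mixed droplets in the remaining genes was not tested.

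Against 377 Folr2-zero macrophages with at least 2 Gpnmb UMIs, 169 of 7615 measured genes (2.22%) were at least 2-fold higher in members and 104 (1.37%) at least 2-fold lower. Again 16 of 20 measured resident markers were past 2-fold, with a median log2 ratio of 1.81. Here the MHC class II genes stood on the other side, 6 of 6 measured with intervals above 1 (24.4% of all genes) and a median log2 ratio of 0.59, with H2-Aa at 1856 against 1148 CPM. Of 12 measured cell cycle genes 9 were at least 2-fold higher, and of 4 measured B lineage markers 3 were. Intervals lay above 1 for 6 of 8 neutrophil and 6 of 7 erythroid markers (24.4% of all genes). For all 10 mesenchymal markers they lay below 1 (12.6% of all genes), with a median log2 ratio of -0.97. RNA of other cell types thus moved with this comparison too, in both directions, and its part was not tested. All 16 lipid-associated genes had intervals below 1 (12.6% of all genes), which the choice of the comparison cells by Gpnmb favours. These cells are a subset of the Folr2-zero group, so both comparisons share the members and part of the comparison cells. The level of MHC class II in members therefore lay between that of Gpnmb-positive cells and that of the Folr2-zero group as a whole.

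Against 778 CGG monocytes with Ccr2, Csf1r, no Folr2 and fewer than 20 C1q UMIs, 761 of 7946 measured genes (9.58%) were at least 2-fold higher in members and 762 (9.59%) at least 2-fold lower, with a median log2 ratio of -0.15. Pf4 was 72.1 times as high (61.4 to 85.2), Ccl8 41.0 times (36.8 to 45.8), Cbr2 38.1 times (28.7 to 51.9), Ms4a7 26.5 times (23.8 to 29.6) and Stab1 24.1 times (19.3 to 30.4). Of 20 measured resident markers 17 were past 2-fold higher and 2 past 2-fold lower. The lower ones were Mgl2, at 16.2 against 56.0 CPM, and F13a1, at 300 CPM in members, 43.7 CPM in Folr2-zero macrophages and 607 CPM in monocytes. F13a1 thus separated members from other C1q macrophages but was 2.02-fold lower than in monocytes. All 16 lipid-associated genes were at least 2-fold higher than in monocytes, and 10 of 12 monocyte markers at least 2-fold lower, Ly6c2 11.6-fold (176 against 2042 CPM). The monocytes were chosen by Ccr2, itself among these 12 markers, and by few C1q UMIs. That choice favours these counts and that of the resident markers. Of 18 cell cycle genes 17 were at least 2-fold lower. The lowest named genes were Prtn3, Elane, Mpo, Ctsg, the dendritic cell lectin Cd209a and the glutamate receptor Gria3. The first 4 encode granule proteins of myeloid progenitors, so this monocyte group held progenitor RNA, at 765 CPM of Elane.

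For a number of genes, though not for all, members with more Folr2 stood farther from Folr2-zero cells. The 447 CGG members had 1 Folr2 UMI in 160 barcodes, 2 to 4 in 136 and 5 or more in 151, with median depths of 8625, 9785 and 12196 UMIs. From Folr2-zero cells through these 3 tiers, Mrc1 was at 263, 503, 572 and 1039 CPM. Pf4 was at 306, 636, 771 and 2285 CPM, and Ccl8 at 325, 651, 1486 and 2707 CPM. Cbr2 was at 9.88, 38.6, 81.8 and 479 CPM. Each of these genes stood higher in each tier than in the one before.

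Lyve1 was nearly limited to the top tier, with 0.454, 1.19, 0.665 and 91.4 CPM. Cd163 followed a like course at 4.66, 2.97, 17.9 and 89.5 CPM. Gpnmb went down from 1705 to 1362, 1280 and 414 CPM, and Fabp5 from 2182 to 1702, 1803 and 596 CPM, so for both the step lay between the upper tiers. H2-Aa went from 2479 to 2262, 2120 and 1335 CPM, and Col1a1 from 2001 to 1384, 1034 and 480 CPM. Igf1 (261, 299, 369 and 292 CPM) and Ms4a7 (971, 1199, 1203 and 987 CPM) had no such order. Nor had the summed monocyte markers (2672, 2039, 2077 and 2610 CPM) or neutrophil markers (9530, 12829, 6496 and 5365 CPM). The tiers differ in depth and in C1q, with median C1q counts of 86.5, 101, 123 and 186, and barcodes with 1 UMI include some at the free RNA level given above.

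**Figure D3:**
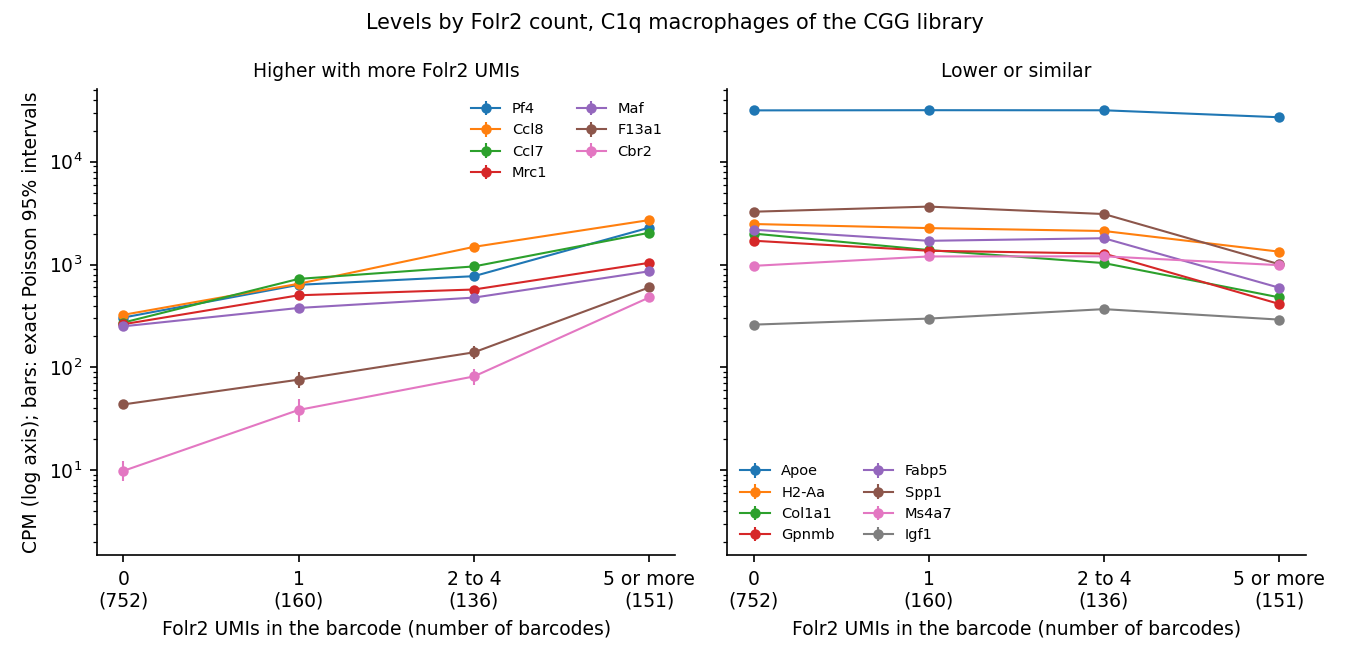
Levels of 15 genes in C1q macrophages of the CGG library with 0, 1, 2 to 4 and 5 or more Folr2 UMIs, in CPM on a log axis with exact Poisson 95% intervals and the number of barcodes below each tier. Genes on the left climb with Folr2, Cbr2 from 9.88 to 479 CPM, while on the right Gpnmb ends at 414 CPM and Igf1 and Ms4a7 neither climb nor go down throughout.

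The members were not uniform. At one end stood the 29 Lyve1-positive members, with a median of 12868 UMIs against 10252 in the other 418. All 29 also held Cbr2, 28 held F13a1, 24 Clec10a and 20 the ficolin Fcna, where the shares over all members were 41.6%, 43.6%, 31.8% and 12.3%. Folr2 itself was at 1507 against 357 CPM. Of 7795 measured genes, 615 (7.89%) were at least 2-fold higher in them and 402 (5.16%) at least 2-fold lower, and 16 of 21 measured resident markers, Lyve1 included, were at least 2-fold higher. Cd209f was 22.2 times as high (15.7 to 31.6), with 42.9% of its UMIs in 1 barcode, Fcna 12.2 times (8.53 to 17.3) and Gas6 3.85 times (3.39 to 4.36). With only 29 barcodes, some genes passed 2-fold on small counts or through 1 barcode. Ccnb2 did so on 10 UMIs (ratio 2.55, 1.15 to 5.11), and Il6 (ratio 3.71) with 93.3% of its UMIs in 1 barcode. Single barcodes also held 91.3% of the Ccl5 and 64.4% of the Col1a2 UMIs of the 29.

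In these cells all 6 measured MHC class II genes were at least 2-fold lower, with H2-Aa at 163 against 1998 CPM, 12.2-fold lower. Gpnmb was 8.38-fold lower, with 82.0% of the remaining UMIs in 1 barcode, Spp1 9.70-fold lower and Mmp12 22.5-fold lower. Igf1 did not differ beyond counting error, at 314 against 316 CPM (ratio 0.99, 0.82 to 1.19). Of 8 measured neutrophil markers 7 were at least 2-fold lower in them (median log2 ratio -1.72), and of 7 erythroid markers all were (-1.71). The basophil-marked barcode described above is 1 of the 29. The part of this RNA in the other differences was not tested. Cd163 was detected in 11 of the 29. Between the 41 members with Cd163 and the other 406, 490 of 7751 measured genes (6.32%) were at least 2-fold higher with it and 368 (4.75%) at least 2-fold lower, and of the 41 Cd163-positive members 38 held Cbr2 and 38 held F13a1. In that split 5 of 10 mesenchymal markers were at least 2-fold higher (median log2 ratio 1.27; 1 barcode held 50.6% of the Col3a1 UMIs) and 6 of 7 erythroid markers at least 2-fold lower.

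At the other end, 186 members held at least 2 Gpnmb UMIs. Compared with the other 261 they had a median of 12069.5 against 8878 UMIs and 239 against 658 CPM of Folr2. Of 7665 measured genes, 163 (2.13%) were at least 2-fold higher and 251 (3.27%) at least 2-fold lower. Of 16 lipid-associated genes, Gpnmb included, 14 were at least 2-fold higher: Mmp12 was 20.1 times as high (16.5 to 24.8), Spp1 14.2 times (13.2 to 15.3) and Fabp5 9.66 times (8.89 to 10.5). The proton pump subunit Atp6v0d2, found in osteoclasts, was 25.6 times as high (17.8 to 38.1), Itgax 6.40 times (4.95 to 8.38) and Ctsk 3.87 times (3.15 to 4.81). In contrast 15 of 20 resident markers were at least 2-fold lower, Mrc1 2.76-fold at 393 against 1084 CPM, and Bmp2 was 8.48-fold lower. Of 6 measured MHC class II genes 4 were at least 2-fold lower (median log2 ratio -1.10). Neutrophil markers were at least 2-fold higher in 6 of 9 (1.23) and erythroid markers in 3 of 8 (0.91), and the part of that RNA was not tested. Folr2 in these members was fixed by the rule, and single UMIs include some at the free RNA level given above.

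**Figure D4:**
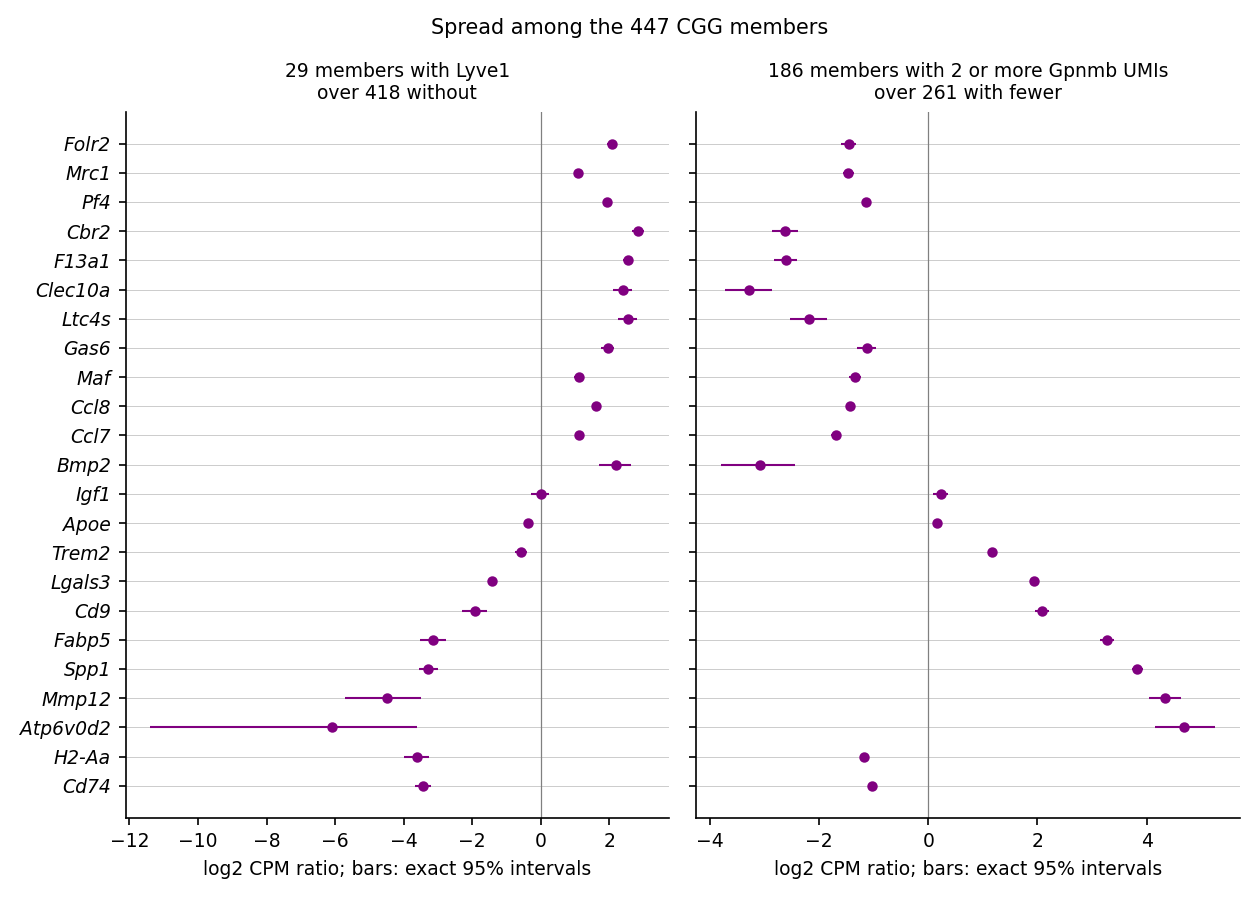
Log2 CPM ratios of 23 genes within the 447 CGG members, for 29 Lyve1-positive over 418 other members (left) and 186 members with at least 2 Gpnmb UMIs over 261 others (right), with exact 95% intervals. The upper genes lie right of 0 on the left panel and left of 0 on the right panel, lipid genes do the reverse, and H2-Aa and Cd74 lie left of 0 in both.

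Over 397 members thinned to 4000 UMIs, Gpnmb and Fabp5 had an r of 0.72 and Gpnmb and Spp1 of 0.61, while Mrc1 and Pf4 had 0.60. Mrc1 and Gpnmb had -0.42, and Folr2 had 0.42 with Pf4, 0.39 with Mrc1 and -0.39 with Gpnmb. These values share the library, and splits and correlations over the same cells are no separate evidence.

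**Figure D5:**
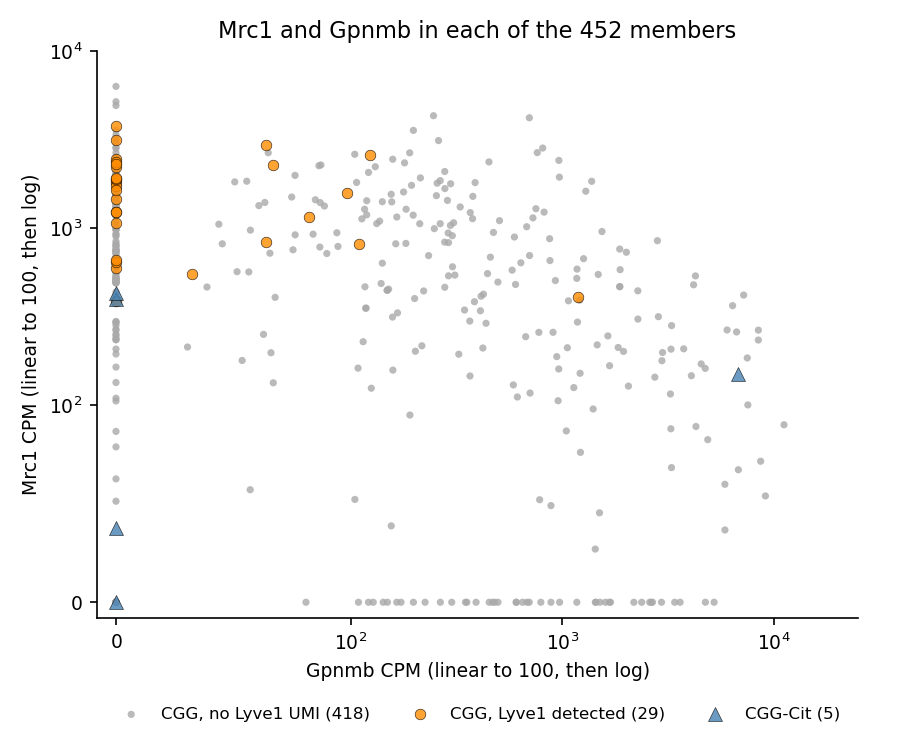
Mrc1 against Gpnmb in CPM for each of the 452 members, on axes linear to 100 and logarithmic above, with 29 Lyve1-positive CGG members in orange, 418 other CGG members in grey and 5 CGG-Cit members as blue triangles. Nearly all Lyve1-positive members sit high on the Mrc1 axis with little or no Gpnmb, and members with the most Gpnmb have low Mrc1.

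MHC class II was low at both ends and was examined by a split of its own. Members were split at their median of the summed H2-Aa, H2-Ab1 and H2-Eb1 level, 760 CPM, with 223 above it and 37 within 25% of it, so the sides are ranges and not types. Of 7664 measured genes, 47 (0.613%) were at least 2-fold higher above the median and 111 (1.45%) at least 2-fold lower. Members above it had Mrc1 at 732 CPM and those below at 735 CPM, a difference within counting error (ratio 0.996, 0.934 to 1.06). Folr2 was at 358 against 528 CPM. The interferon-induced chemokine Cxcl9 was 5.83 times as high above the median (4.72 to 7.25) and Ccr2 2.88 times (2.44 to 3.40). The iron exporter Slc40a1 was 4.48-fold lower above the median, Ltc4s 2.77-fold lower and Hmox1 2.04-fold lower. Retnla, a secreted protein of alternatively activated macrophages, was 69.2 times as high, with 45.7% of its UMIs in 1 barcode. Above the median, 3 of 4 B lineage markers (median log2 ratio -1.18) and 2 of 9 mesenchymal markers (-0.49) were at least 2-fold lower. Of 8 erythroid markers 1 was at least 2-fold higher and 1 at least 2-fold lower (0.27). The part of this RNA in the split was not tested.

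Ccr2, the monocyte receptor, was detected in 132 members (29.5%). Against the other 315 members, 182 of 7701 measured genes (2.36%) were at least 2-fold higher in them and 87 (1.13%) at least 2-fold lower. They had Ly6c2 at 388 against 70.8 CPM, 5.48 times as high (4.73 to 6.36), and H2-Aa at 2859 against 1361 CPM, 2.10 times (2.02 to 2.19). Their Folr2 was at 410 against 464 CPM, a ratio of 0.89 (0.81 to 0.97), and Cbr2 at 226 against 223 CPM, a ratio of 1.01 (0.90 to 1.15). Apoe was 1.72-fold lower and Gpnmb 3.25-fold lower in them. These members had a median of 12190.5 against 9763 UMIs. Markers of other cell types moved with the split, with 5 of 7 erythroid (median log2 ratio 1.51), 4 of 9 mesenchymal (0.97) and 4 of 6 endothelial markers (1.21) at least 2-fold higher, and their part in the result was not tested.

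The 5 CGG-Cit members held 7907, 10042, 11616, 13314 and 52747 UMIs, with 4, 5, 2, 2 and 1 Folr2 UMIs. The 4 shallower ones had 131, 53, 196 and 201 C1q UMIs and 592, 296, 415 and 450 Apoe UMIs. The deepest had 35 C1q and 15 Apoe UMIs beside 220 of Ly6c2, 30 of the cell cycle gene Mki67, 18 of Cd79a and Cd79b and 2443 of the neutrophil genes Ltf, Camp and Ngp, so it carried markers of several cell types. Across the 5, Mrc1 had 0, 4, 5, 2 and 2 UMIs and Pf4 10, 11, 2, 0 and 0. One member held 65 of the 73 Ccl8 UMIs, and another held all 90 Gpnmb UMIs. Lyve1 and Cd163 had no UMI in any of them, which with 95626 UMIs and 3 counts as the limit allows up to 31.4 CPM. Without the deepest barcode the limit is 69.96 CPM, above the 36.6 and 41.3 CPM of CGG members, so a difference in these genes was not detectable at this depth.

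Summed over the 4 CGG-Cit members without the deepest, Mrc1 was at 257 CPM (128 to 459), Pf4 at 536 CPM (340 to 805) and Ccl8 at 1702 CPM (1334 to 2141). The Mrc1 and Pf4 intervals lay below the levels of 734 and 1323 CPM in CGG members, and that of Ccl8 included 1699 CPM. With the deepest, Mrc1 was at 136 CPM and Pf4 at 241 CPM. With 4 or 5 cells from 1 library, these values describe those cells, and a difference in level between hydrogels was not tested.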

How the data were processed

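Gene counts per cell barcode were made by the authors and deposited as unnormalized UMI counts, with Cell Ranger 3.0 and mm10 per the submitters' processing notes. The file headers name Cell Ranger 4.0.0 instead, and the labels give the reagent kit as v2 or v3. The libraries held 12527 (CGG) and 10806 (CGG-Cit) barcodes with 92517884 and 106173570 UMIs, a median of 3819 and 6212.5 per barcode, so precision is set by the UMIs summed in a group. Sums, CPM and intervals were computed with Python 3.11.15, numpy 2.4.6 and scipy 1.17.1, and the comparison code was tested on simulated data. The members and gene lists were chosen with earlier results of these data known. Named genes were the 12 highest and 12 lowest against Folr2-zero cells, and 6 each way against monocytes, by the interval bound nearest to 1 among genes reaching 50 CPM and 30 UMIs in whichever group was higher, besides genes of the lists. Doublets were kept. Scrublet (scanpy 1.11.5) marked 1 CGG barcode by its own threshold, so an alternative removed the 1231 with the highest scores (10.0%, 53 members among them), and 537 in CGG-Cit with no member. With 1 library per hydrogel no test over samples was possible.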

Additional observations from a re-analysis of the deposited data

How the results depend on the processing

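No paired analysis was possible because each hydrogel had 1 library. Against Folr2-zero cells, 13 alternatives and 2 chosen after seeing the data were run: of 615 log2 ratios over 41 genes 7 reversed, and of 225 list medians over 15 lists 1 did. A change of sign counted as reversed only where the interval of the reported log2 value left out 0. Not counted were the medians of growth factor and repair genes (-0.047 to 0.087) and macrophage transcription factors (-0.003 to 0.082), which lay on both sides of 0. With at least 2 Folr2 UMIs required, 110 genes were at least 2-fold higher and 124 lower (62 and 60 as reported), and the resident and MHC class II medians were 1.85 and -0.60. With 5 CPM added, 36 genes were lower and the resident median was 1.42. With every gene of 1 UMI or more, the counts were 1212 and 2404 and the resident median 1.82. With each cell at the same weight, 31 genes were lower. Leaving out barcodes rich in collagen, Cd79 or Cd3 RNA gave an MHC class II median of -0.59 and reversed the mesenchymal median (0.16), Col1a1 (0.16), Ptn (0.22), Sfrp2 (0.12) and Bglap (0.14), and collagen UMIs were part of that criterion. Bglap also reversed with a C1q minimum of 40 (0.29), without the 2 barcodes that held most basophil or osteocalcin UMIs (0.25) and without each gene's top barcode (0.19). The log2 ratio of Mrc1 stayed within 1.32 to 1.68, that of Pf4 within 1.94 to 2.43 and that of Ccl8 within 2.10 to 2.75. The share difference of -3.59 points was -3.20 with a C1q minimum of 40, -2.30 with at least 2 Folr2 UMIs (287 CGG members), -8.33 without other-lineage barcodes, -13.3 over barcodes with Csf1r and -1.70 with every barcode thinned to 2000 UMIs (154 CGG members and 0 CGG-Cit members). Apart from what these settings remove by construction, the cause was not tested. Depth limits genes under 10 CPM and every level in the 5 CGG-Cit members.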
